A study of Mus musculus with 6 samples.

Results

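The genes described are 10 chemokine genes of the mouse mammary carcinoma line 4T1: Cxcl1, Cxcl2, Cxcl3, Cxcl5, Cxcl16, Cx3cl1, Ccl2, Ccl5, Ccl7 and Ccl20. They were taken by gene symbol from a table of 56448 genes, and each symbol had 1 row. The table held 6 messenger RNA libraries, 3 with the genotype label LV2 and 3 with in9, all from cells grown in medium with fetal bovine serum and antibiotics, although the extraction label speaks of tissue. Per the series' design, miR-9, a microRNA, was stably knocked down with lentivirus and a control group was kept. The labels spell out neither name, do not say which group is the control, and do not say whether a group is 1 clone or a pool, so each difference is given as in9 minus LV2. Values are in TPM, the share of transcripts after division by transcript length, so levels of different genes can be compared, but TPM keeps no record of depth. The labels do not say whether the 3 replicates of a group were separate cultures. Each p-value therefore reflects the spread of these libraries alone, which may be technical.

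Chemokines are small secreted proteins that guide leukocytes along a gradient by binding G-protein-coupled receptors. The CXC chemokines Cxcl1, Cxcl2, Cxcl3 and Cxcl5 act on the receptor Cxcr2 and draw neutrophils, while the CC chemokines Ccl2 and Ccl7 act on Ccr2 and draw monocytes. Carcinoma cells commonly make chemokines of both kinds, the genes respond to the transcription factor NF-kB, and their messenger RNAs are often short-lived because AU-rich elements in the 3′ untranslated region (UTR) recruit decay proteins.

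The members fall into 6 places of the mm10 genome (positions from GENCODE M21, which is on the same build and matched all 10). Cxcl5 (chromosome 5, positions 90759360 to 90761624), Cxcl3 (90786103 to 90789600), Cxcl1 (90891241 to 90893115) and Cxcl2 (90903871 to 90905938) share a cluster on the plus strand, in which Cxcl2 starts 12.6 kb after Cxcl1, and Cxcl5 starts 132 kb before it. Ccl2 (chromosome 11, 82035571 to 82037453) and Ccl7 (82045712 to 82047525) lie side by side with starts 10.1 kb apart. Ccl5 (83525778 to 83530518) and Cxcl16 (70453983 to 70459984) lie elsewhere on chromosome 11, both on the minus strand, Cx3cl1 (94772009 to 94782427) on chromosome 8 and Ccl20 (83116766 to 83119167) on chromosome 1. RefSeq promoter sequences (build GRCm38.p6) matched 5 members: Cxcl1, Cxcl2, Cxcl3, Ccl20 and Cx3cl1.

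The promoters of Cxcl1, Cxcl2 and Cxcl3 are shown because these genes are close copies with very different levels in the same cells. Each stretch is the 100 bases just before the annotated start (the earlier of the RefSeq and GENCODE starts), written 5′ to 3′ on the plus strand. Capitals mark the strings of at least 8 bases that all 3 stretches hold: GGGAATTTCCC, which includes a match to the NF-kB consensus, and ATAAAAGG, a TATA-type element. The stretches cover chr5:90891141-90891240, chr5:90903771-90903870 and chr5:90786001-90786100.
Cxcl1: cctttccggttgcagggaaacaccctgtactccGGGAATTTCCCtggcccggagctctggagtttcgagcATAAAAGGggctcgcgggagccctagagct
Cxcl2: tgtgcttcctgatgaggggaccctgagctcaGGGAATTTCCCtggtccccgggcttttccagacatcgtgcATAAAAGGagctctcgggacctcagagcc
Cxcl3: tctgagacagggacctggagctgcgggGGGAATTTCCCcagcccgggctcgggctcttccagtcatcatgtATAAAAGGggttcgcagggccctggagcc

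Both strings stand in the same order in all 3 genes. GGGAATTTCCC began 67, 69 and 73 bases before the start in Cxcl1, Cxcl2 and Cxcl3, and ATAAAAGG began 30, 29 and 29 bases before it. Aligned end to end, Cxcl1 and Cxcl2 were identical in 70.4% of alignment columns, Cxcl1 and Cxcl3 in 63.4%, and Cxcl2 and Cxcl3 in 68.8%. Searched on both strands in the 250 bases before the RefSeq start, GGGAATTTCCC was in 0.0426% of 32851 promoters and ATAAAAGG in 1.54%. The strings were chosen because these 3 genes share them, so these shares are a description. Neither was in the windows of Ccl20 and Cx3cl1. A match is a description of the sequence and not a measured binding site.

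The 3′ UTR of the longest annotated form was read for AU-rich letters and for miR-9 sites, since the series concerns that microRNA. The pentamer ATTTA, which lies at the core of AU-rich elements, occurred 7 times in the 592 bases of Cxcl1, 11 times in Cxcl2, 5 times in Cxcl3, 5 times in Cxcl5, 9 times in Ccl20, 2 times in Ccl7 and 1 time in Ccl2. Per kb this was 11.8 in Cxcl1, 8.57 in Ccl20, 7.75 in Cxcl3, 7.36 in Cxcl2, 4.50 in Cxcl5 and 3.64 in Ccl2, against a median of 1.35 over 19921 UTRs of at least 100 bases. Cxcl1 was above 99.5% of those UTRs, Ccl7 (2 copies in 435 bases) above 90.7%, Cxcl5 above 90.2% and Ccl2 above 84.5%. Cxcl16 (1.41), Cx3cl1 (0.534) and Ccl5 (0) were near or below that median. The densest 30-base stretches of Cxcl1 (bases 79 to 108 of the UTR) and Cxcl2 (bases 883 to 912) show the repeats in capitals.
Cxcl1: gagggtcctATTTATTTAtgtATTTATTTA
Cxcl2: tATTTATTTAtctatgtATTTATTTATTTA

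The mature arms of mouse miR-9 are shown with the seed, bases 2 to 8, in capitals. RefSeq gives the same 5p and 3p arms for its 3 genes.
miR-9-5p: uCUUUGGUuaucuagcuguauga
miR-9-3p: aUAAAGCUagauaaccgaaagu

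A site was a 7-base match, ACCAAAG or CCAAAGA for the 5p arm and AGCTTTA or GCTTTAA for the 3p arm, or the 8-base string that joins the 2. Of the members, Cxcl2 held an 8-base and Ccl20 a 7-base 5p site, and Cxcl3 an 8-base 3p site. The UTR read for Cxcl2 has 1494 bases, while the length deposited for the whole gene is 1109 bases. Whether the form of Cxcl2 in these cells holds that UTR was not tested. No site for either arm was found in the 3′ UTR of Cxcl1, Cxcl5, Cxcl16, Cx3cl1, Ccl2, Ccl5 or Ccl7. Over 21022 genes with a 3′ UTR, 20.3% held a 5p site and 17.4% a 3p site. The sites are shown in 30 bases with the match in capitals.
Cxcl2, miR-9-5p: tcaacggaagaACCAAAGAgaaagaaaaaa
Ccl20, miR-9-5p: agatgtgatatACCAAAGccattcctatca
Cxcl3, miR-9-3p: ctttgtgttaaAGCTTTAAgaattataatg

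The cells carried the epithelial markers of their labelled type. All 9 epithelial markers were tested and their summed level was 2520.0 to 2571 TPM in LV2 against 2405 to 2469 TPM in in9, with the keratins Krt8 and Krt18 highest. The leukocyte gene Ptprc (CD45) stood at 0 to 0.12 TPM. The macrophage genes Adgre1, Cd163, C1qa, C1qb and C1qc and the neutrophil genes Ly6g, Mpo and Camp were listed at 0 in all 6 libraries. Other genes of the same lists were present. Cd68 was at 27.5 to 40.6 TPM, Cd14 at 15.8 to 21.5, Mrc1 at 2.33 to 3.85 and S100a8 at 7.50 to 28.2 TPM. On the first principal component in9 replicate 1 scored -2.70, away from in9 replicates 2 and 3 (26.1 and 27.8) and nearer to LV2 (-22.2 to -6.98). Results that rest on it are also given without it. As the libraries are bulk RNA, more RNA per cell and more cells making a transcript cannot be told apart.

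**Figure D1:**
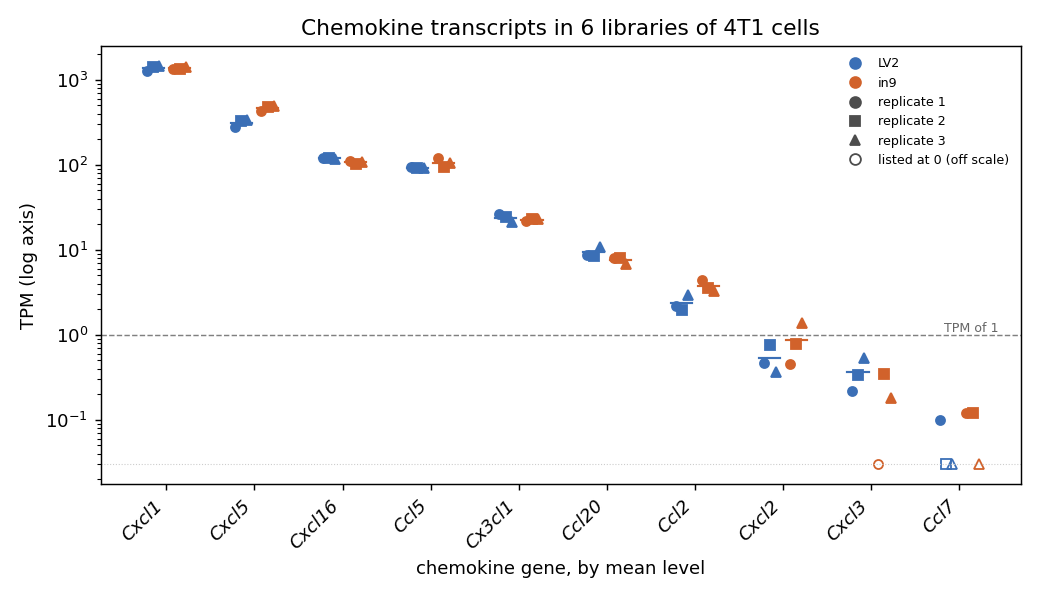
TPM (log axis) of the 10 chemokine genes in each of the 3 LV2 and 3 in9 libraries, ordered by mean level, with horizontal bars at the group means where no library was at 0. Levels fall from about 1368 TPM for Cxcl1 to 0.0567 TPM for Ccl7, and Cxcl2, Cxcl3 and Ccl7 have means under 1 TPM.

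Cxcl1 was the most abundant chemokine of the set. The order of mean levels over the 6 libraries was Cxcl1, Cxcl5, Cxcl16, Ccl5, Cx3cl1, Ccl20, Ccl2, Cxcl2, Cxcl3 and Ccl7. Neighbours in this order did not overlap in range except Cxcl16 and Ccl5, Cxcl2 and Cxcl3, and Cxcl3 and Ccl7. Cxcl16 was above Ccl5 in 5 of the 6 libraries, in9 replicate 1 being the exception. Together the 10 genes summed to 1785 to 2042 TPM in LV2 against 2036 to 2161 TPM in in9, about 0.179% to 0.216% of all TPM. The neutrophil-attracting ligands Cxcl1 and Cxcl5 made up most of that sum, and Ccl5 made up 87.0% to 91.2% of the TPM of the 4 CC members.

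Of the 10 members, 7 reached the mean TPM of at least 1 that was needed for the test. With limma, a linear-model test fitted on all 13406 genes above that level, 1 of the 7, Cxcl5, was called higher in in9 and none lower at a Benjamini-Hochberg adjusted p under 0.05. Before adjustment, Cxcl5 and Ccl2 were higher and Cxcl16 was lower at p under 0.05, as were 13.6% (higher) and 5.86% (lower) of all tested genes. Of all tested genes 0.821% were called higher and 0.194% lower, which were 110 and 26 genes, or 48 and 24 after trimmed-mean scaling. The median log2 difference of the 7 was -0.01, against 0.06 over all tested genes. Trimmed-mean scaling gave -0.08 for the members and -0.01 for all genes, and quantile normalization 0.11 and 0.00. In Cxcl5 and Ccl2 every in9 library lay above every LV2 library, which was so in 17.4% of all tested genes. In Cxcl16 and Ccl20 every in9 library lay below every LV2 library, as in 8.08% of them.

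**Figure D2:**
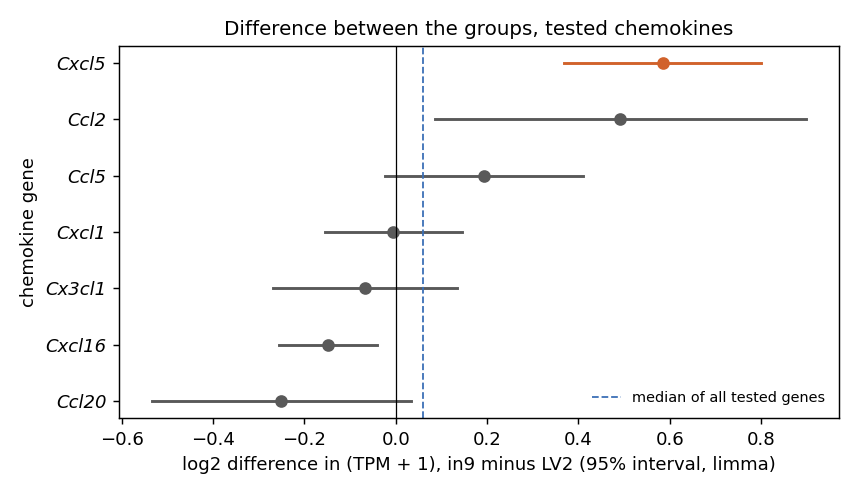
Log2 difference of (TPM + 1), in9 minus LV2, for the 7 tested chemokines, with unadjusted 95% intervals from limma and a dashed line at the median of all tested genes (0.06). Cxcl5 (0.58), in colour, is the called gene, and Cxcl1 sits at -0.01.

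Cxcl5, also known as LIX in the mouse, is a Cxcr2 ligand that mobilises and attracts neutrophils. It stood at 276, 323 and 339.9 TPM in LV2 replicates 1, 2 and 3 and at 432, 479.6 and 496 TPM in the in9 replicates in the same order. The groups did not overlap. The mean rose from 313 ± 33.0 to 469 ± 33.3 TPM (SD, n = 3), a log2 difference of 0.58 ± 0.09 (SE, adjusted p = 0.0473 in limma). That call lay close to the threshold. The adjusted p was 0.0841 after trimmed-mean scaling, with a log2 difference of 0.51, and it was 0.113, 0.192 and 0.123 without LV2 replicate 1, 2 or 3, and 0.169 and 0.171 without in9 replicate 2 or 3. Without in9 replicate 1 it was 0.0197, in a fit that called 7.25% of 13386 genes higher and 3.8% lower. The log2 difference was between 0.50 and 0.65 in the 6 fits that left out a library.

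Cxcl1, known as KC in the mouse and the main Cxcr2 ligand by level here, did not differ detectably. Its libraries were at 1257, 1401 and 1457 TPM in LV2 and at 1339, 1338 and 1417 TPM in in9. The in9 values all lay inside the LV2 range. The log2 difference was -0.01 ± 0.06 (SE, adjusted p = 0.973 in limma), with a 95% interval of -0.15 to 0.14, and its sign turned after quantile normalization (0.11) and when LV2 replicate 2, LV2 replicate 3, in9 replicate 1 or in9 replicate 2 was left out (0.04 or less).

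Because Cxcl5 and Cxcl1 come from 1 cluster and share a receptor, their ratio was taken within each library, where it does not depend on scaling between libraries. Cxcl5 stood at 22.0%, 23.1% and 23.3% of Cxcl1 in LV2 and at 32.2%, 35.8% and 35.0% in in9. The groups did not overlap. On the log2(TPM + 1) scale the ratio was -2.13 ± 0.0451 in LV2 against -1.54 ± 0.0798 in in9 (SD, n = 3). The difference of 0.59 had an exact two-sided permutation p of 0.1, which is the smallest that 3 against 3 libraries can give. The share of Cxcl5 in the TPM of all 10 members was 15.5% to 16.6% in LV2 against 21.2% to 23.4% in in9, while that of Cxcl1 was 70.4% to 71.4% and 65.3% to 65.7%.

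**Figure D3:**
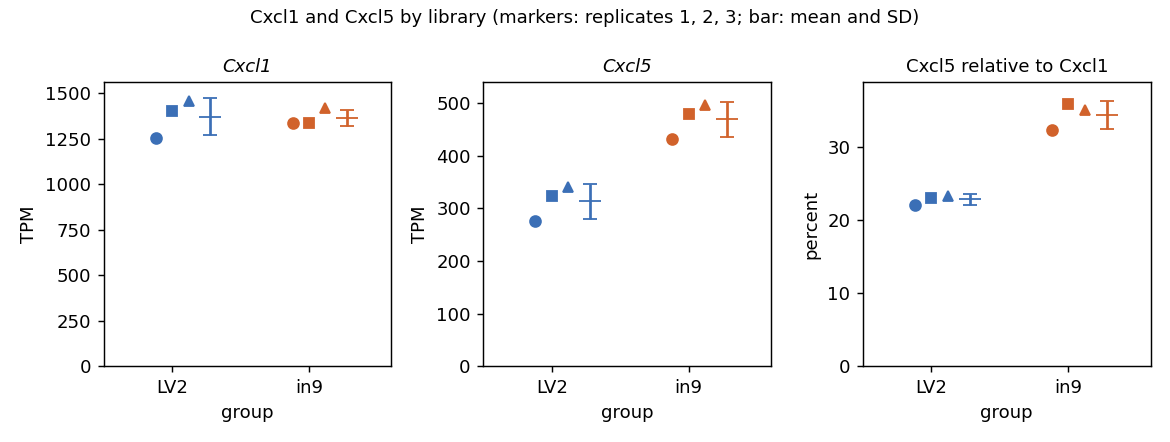
Levels of Cxcl1 and Cxcl5 in TPM and Cxcl5 as a percent of Cxcl1 in each library, with the group mean and SD beside the points and axes from 0. The Cxcl1 points overlap between the groups, while the percent is 22.0 to 23.3 in LV2 against 32.2 to 35.8 in in9.

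The closest copies of Cxcl1 were nearly silent. Cxcl2 (MIP-2), a Cxcr2 ligand that is strongly induced in inflamed tissue, was at 0.47, 0.76 and 0.36 TPM in LV2 against 0.45, 0.78 and 1.39 TPM in in9. Cxcl3 was at 0.22, 0.34 and 0.54 TPM in LV2, and in in9 it was listed at 0, 0.35 and 0.18 TPM. Both groups overlapped for each gene, and neither gene reached the level needed for the test. By mean TPM, Cxcl1 was 1950-fold above Cxcl2, with 1019 to 4047-fold in single libraries. Of the 50-base stretches in the annotated transcripts of Cxcl2, 5.84% were shared with Cxcl3 and none with Cxcl1. Of those of Cxcl3, 4.24% were shared with Cxcl2 or with other genes. Reads of Cxcl2 and Cxcl3 may therefore have been split between them, and reads of Cxcl3 with other genes as well. No 50-base stretch of Cxcl1 was found in the transcripts of any other gene, and 0.693% of those of Cxcl5 were.

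**Figure D4:**
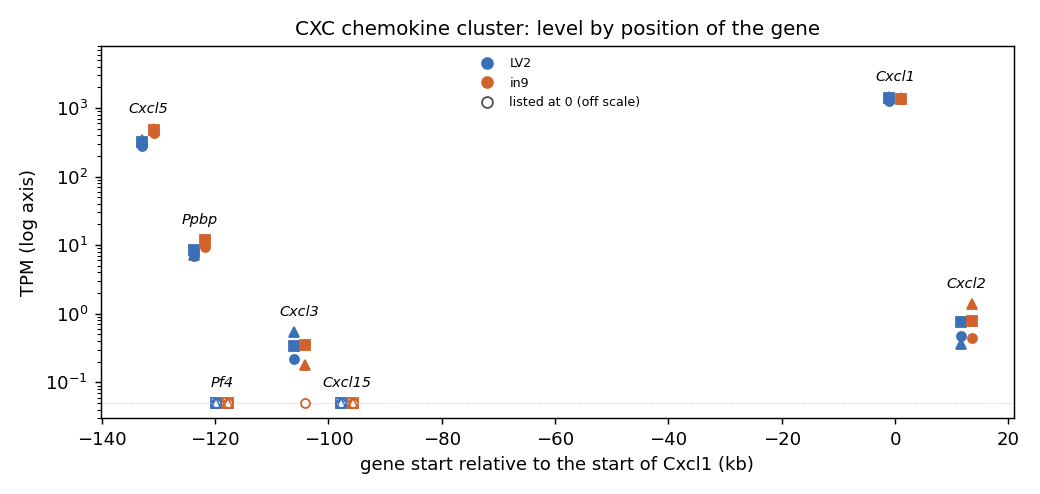
TPM (log axis) of the 7 protein-coding genes of the chromosome 5 cluster, placed by the distance of their start from that of Cxcl1 in kb, with marker shapes for replicates 1 to 3 as circle, square and triangle. Cxcl5 and Cxcl1, near opposite ends of the cluster, are at 276 to 1457 TPM, and the genes between and beside them are at 0 to 11.9 TPM.

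Other genes of that cluster were low as well. Ppbp, whose product is processed to the platelet chemokine Cxcl7, starts next to Cxcl5 and was at 7.01, 8.50 and 7.12 TPM in LV2 and at 9.50, 11.9 and 11.3 TPM in in9. The groups of Ppbp did not overlap, but it was not called (log2 difference 0.48 ± 0.12 SE, adjusted p = 0.110 in limma, and 0.0357 without in9 replicate 1). Within libraries Cxcl5 was 38.0 to 47.7 times Ppbp in LV2 and 40.4 to 45.4 times in in9, so the ratio of these neighbours overlapped between the groups. Pf4 and Cxcl15 were listed at 0 in all libraries.

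Cxcl16 and Cx3cl1 (fractalkine) are the chemokines made as membrane-anchored proteins, from which the proteases Adam10 and Adam17 release a soluble form. Cxcl16, the ligand of Cxcr6, was at 119.5, 120.35 and 117 TPM in LV2 and at 110.49, 103 and 108.5 TPM in in9. It lay lower in every in9 library by a small margin, and its log2 difference of -0.15 ± 0.04 (SE) was not called (adjusted p = 0.153, and 0.0561 without in9 replicate 1). Cx3cl1, which binds Cx3cr1 on monocytes, was at 26.0, 24.4 and 21.3 TPM in LV2 and at 21.9, 23.2 and 22.9 TPM in in9. The Cx3cl1 groups overlapped (log2 difference -0.07 ± 0.08 SE, adjusted p = 0.683 in limma). Adam10 was at 41.2 ± 1.45 TPM in LV2 against 46.7 ± 6.06 TPM in in9, and Adam17 at 45.7 ± 1.88 and 51.3 ± 6.66 TPM (SD, n = 3). Neither protease was called with all libraries, and both were called higher without in9 replicate 1 (adjusted p = 0.0486 and 0.0366 in limma). The fit without that library called 7.25% of all genes higher.

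Among the CC members Ccl5 (RANTES), which attracts T cells and monocytes, was the highest. Its libraries were at 94.7, 90.4 and 92.0 TPM in LV2 and at 120.25, 93.6 and 105 TPM in in9. In9 replicate 1 was the highest library and in9 replicate 2 fell inside the LV2 range. The log2 difference of Ccl5 was 0.19 ± 0.09 (SE, adjusted p = 0.299), and 0.10 without in9 replicate 1.

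Ccl2 (MCP-1), the main monocyte attractant of many tumours, was low in these cells. It stood at 2.20, 1.98 and 2.96 TPM in LV2 and at 4.43, 3.53 and 3.27 TPM in in9. The groups did not overlap, with in9 replicate 1 the highest, and the difference of 0.49 ± 0.17 (SE) on the log2(TPM + 1) scale was not called (adjusted p = 0.193 in limma). That scale understates changes at such low levels, where the ratio of mean TPM was 1.57. The log2 difference of Ccl2 was 0.39 to 0.61 with 1 library left out, lowest without in9 replicate 1. None of those fits called Ccl2. Its neighbour Ccl7 (MCP-3) was at 0.10, 0 and 0 TPM in LV2 and at 0.12, 0.12 and 0 TPM in in9, too low for a test.

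Ccl20, the ligand of Ccr6, which draws dendritic cells and lymphocytes, was at 8.74, 8.36 and 10.8 TPM in LV2 and at 8.08, 7.90 and 6.89 TPM in in9. Each in9 library lay below each LV2 library, with 8.36 TPM as the lowest LV2 value and 8.08 TPM as the highest in9 value. The log2 difference was -0.25 ± 0.12 (SE, adjusted p = 0.304 in limma).

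The remaining chemokine genes were mostly silent. Of 26 other ligand genes, held in 29 rows of the table, 4 rows were tested and 15 were at 0 in all libraries. None of the 4 was called, while Cxcl10 and Ppbp were higher by unadjusted p under 0.05 (13.6% of all genes) and both were called without in9 replicate 1 (7.25% of all genes). Cxcl10, an interferon-induced ligand of Cxcr3 that attracts T cells, was at 20.2, 16.6 and 20.6 TPM in LV2 and at 30.7, 26.1 and 28.3 TPM in in9. Its groups did not overlap (log2 difference 0.55 ± 0.10 SE, adjusted p = 0.0659, and 0.0459 without in9 replicate 1). Its relatives Cxcl9 and Cxcl11, which share that receptor, were at 0 to 0.49 and 0.10 to 0.34 TPM. Ccl25 (8.44 to 12.8 TPM) and Ccl4 (0.87 to 2.57 TPM) were the other tested genes, and both had overlapping groups.

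The receptors of the members that were read were close to absent. Cxcr2, the receptor of Cxcl1, Cxcl2, Cxcl3 and Cxcl5, was at 0.05 to 0.50 TPM over the 6 libraries, Cx3cr1 at 0.03 to 0.17 and Cxcr6 at 0 to 0.08. Ccr2 and Ccr6 were listed at 0 throughout. Of 22 receptor genes 3 were tested and none was called. Ackr3, an atypical receptor that takes up Cxcl12 without classical signalling, ranged from 45.4 to 47.1 TPM in the LV2 libraries and from 48.0 to 52.7 TPM in those of in9. Ccr9, the receptor of Ccl25, was at 52.6, 45.9 and 47.3 TPM in LV2 and at 37.8, 78.7 and 71.8 TPM in in9. In9 replicate 1 was the lowest library for Ccr9 and the other in9 libraries the highest. The adjusted p of Ccr9 in limma was 0.564 with all libraries and 0.0161 without that one. The latter fit called 7.25% of all genes higher.

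**Figure D5:**
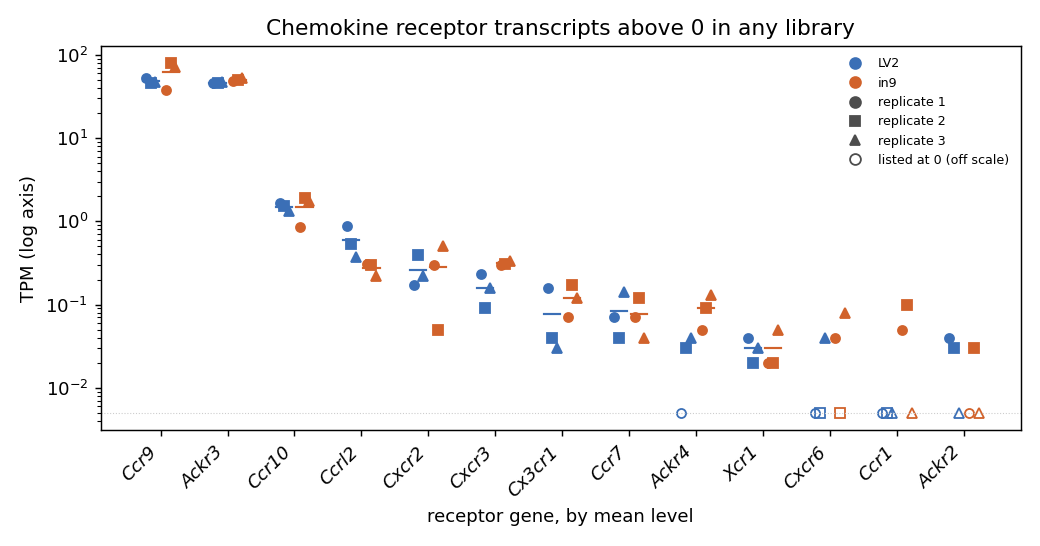
TPM (log axis) of 13 chemokine receptor genes above 0 in at least 1 library, ordered by mean level, for the 3 LV2 and 3 in9 libraries, with bars at group means where no library was at 0. Ccr9 and Ackr3 are at 37.8 to 78.7 TPM and all other receptors are under 2 TPM.

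Genes that act upstream of chemokine transcription were taken as 1 list. Its 31 tested genes cover cytokine input, NF-kB and C/EBP. Of these, 2 were called higher and none lower, against 0.821% and 0.194% of all tested genes. By unadjusted p under 0.05, 6 were higher, against 13.6% of all tested genes. The median log2 difference was 0.08, and 0.01 after trimmed-mean scaling. The 2 were Cebpd, which encodes the acute-phase transcription factor C/EBP delta, and Tnfrsf1b, which encodes TNF receptor 2. Cebpd rose from 6.55, 5.42 and 5.48 TPM in LV2 to 9.49, 10.5 and 10.7 TPM in in9, and Tnfrsf1b from 17.7, 15.8 and 16.5 to 21.9, 23.7 and 23.6 TPM. Their log2 differences were 0.72 ± 0.10 and 0.44 ± 0.07 (SE), with adjusted p of 0.0453 and 0.0488 in limma. That count was 0 when any LV2 library or in9 replicate 2 or 3 was left out, 4 without in9 replicate 1 (Ikbkg and Il1a in addition, in the fit that called 7.25% of all genes higher) and 1 after trimmed-mean scaling. Il1a, which encodes the cytokine interleukin-1 alpha, was at 284 to 302 TPM in LV2 against 326 to 356 TPM in in9 (adjusted p = 0.0968). Tnf was at 0 to 0.10 TPM. The NF-kB subunit Rela was at 73.9 ± 9.37 TPM in LV2 against 73.7 ± 2.70 TPM in in9, and Nfkb1 at 100.3 ± 4.84 and 103 ± 1.86 TPM (SD, n = 3).

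None of the 19 genes that restrain NF-kB or set the decay of AU-rich messenger RNA was called in limma, with 4 higher and none lower at an unadjusted p under 0.05, where all tested genes gave 13.6% and 5.86%. Those with the smallest p were the phosphatase gene Dusp1 (12.7 ± 0.298 TPM in LV2 against 16.0 ± 1.07 TPM in in9, adjusted p = 0.0996) and the genes of the decay proteins tristetraprolin, Zfp36 (20.0 ± 0.625 and 22.8 ± 0.774 TPM, adjusted p = 0.173), and Zfp36l1 (14.5 to 15.5 and 15.8 to 20.7 TPM, adjusted p = 0.205). Without in9 replicate 1 Zfp36l1 and Zfp36l2 were called higher, as were 7.25% of all genes. The ribonuclease Zc3h12a was at 41.2 ± 2.31 TPM in LV2 against 40.9 ± 0.988 TPM in in9.

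Of 16 tested genes that cleave or present chemokines, 3 were called higher and 1 lower, against 0.821% and 0.194% of all tested genes. The metalloproteinase genes Mmp3 (34.2 to 34.8 TPM in LV2 against 69.8 to 71.4 TPM in in9), Mmp13 (11.9 to 14.4 and 25.3 to 27.4 TPM) and Mmp9 (20.4 to 21.9 and 29.6 to 33.4 TPM) rose, by 1.01, 0.98 and 0.53 on the log2 scale (adjusted p = 0.000658, 0.0101 and 0.0355). Sdc1, a heparan sulfate proteoglycan of the kind that holds chemokines at the cell surface, fell by 0.61 (adjusted p = 0.00808). Its LV2 libraries were at 109 to 115 TPM and its in9 libraries at 71.3 to 75.2 TPM. Sdc4, another proteoglycan of this kind, went the other way, from 91.9 to 100 TPM in LV2 against 112 to 115 TPM in in9. Sdc4 was not called with all libraries (adjusted p = 0.0837 in limma) and was called higher without in9 replicate 1 (0.0491). Leaving out in9 replicate 1 gave 7 higher and 1 lower, while the count over all genes went from 110 to 971 higher and from 26 to 509 lower. Without LV2 replicate 1 there were 2 higher, and without any other single library 1 higher, which was Mmp3. Sdc1 was called without in9 replicate 1 or 2 but not without in9 replicate 3 or any LV2 library.

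Secreted proteins other than chemokines that act on the same leukocytes were also listed. Of 15 tested, 4 were called higher and none lower, against 0.821% and 0.194% of all tested genes. The 4 were Spp1, Lcn2, Il6 and Csf3. At an unadjusted p under 0.05, 6 were higher and 1 lower, against 13.6% and 5.86% of all tested genes. The lower one was Csf1, at 70.6 to 79.9 TPM in LV2 against 61.5 to 68.0 TPM in in9 (adjusted p = 0.172 in limma). The log2 difference was negative in 6 of the 15, against 4863 of all 13406 tested genes. Csf3, which encodes G-CSF, the growth factor that releases neutrophils from the marrow, was at 435, 419 and 434 TPM in LV2 and at 549, 509.9 and 516 TPM in in9, a log2 difference of 0.29 ± 0.04 (SE, adjusted p = 0.0453). Csf3 was higher than Cxcl5 in every library. It was not called after trimmed-mean scaling, with no filter, without the trend or with a replicate block. Without in9 replicate 1, where 7.25% of all genes were called higher, the count was 5, with S100a8 added, and without any other single library 2, which were Spp1 and Lcn2. These genes were known from an earlier look at these data, so their count is no independent support for the change of Cxcl5.

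The markers of other cell types were read beside these results. Of 12 macrophage and monocyte markers 3 were tested, and their summed level was 48.4 to 53.4 TPM in LV2 against 54.4 to 61.1 TPM in in9. Nearly all of it was Cd68, Cd14 and Mrc1, none of them called with all libraries, and 5 of the 12 were at 0 throughout. Without in9 replicate 1 Cd68 was called higher (adjusted p = 0.0134 in limma), and of the epithelial markers Cdh1 was called higher (0.0397) and Epcam lower (0.0281). That fit called 7.25% of all genes higher and 3.8% lower. Of 9 neutrophil markers the sum was 8.95 to 10.5 TPM in LV2 against 15.4 to 29.1 TPM in in9, of which S100a8 held most, at 7.50 to 9.38 and 12.6 to 28.2 TPM (adjusted p = 0.101, and 0.0492 without in9 replicate 1). The lymphocyte sum was 0.63 TPM or less. Endothelial markers summed to 2.14 to 2.86 TPM, and fibroblast markers to 4.74 to 6.76 TPM in LV2 against 7.99 to 8.46 TPM in in9, nearly all of it Pdgfra. The collagen genes Col1a1 and Col1a2 were at 0.23 TPM or less. The part of these markers in the difference of Cxcl5 was not tested.

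The genes whose profile over the 6 libraries was most like that of Cxcl5 were Mb21d2, Ifit3, Rgs11 and Thra, among 9391 genes with a mean of at least 5 TPM. Their centred log2(TPM + 1) values differed from those of Cxcl5 by a root mean square of 0.05, 0.05, 0.06 and 0.08. Ifit3, an interferon-induced gene, was at 8.81, 10.1 and 11.6 TPM in LV2 and at 13.4, 15.3 and 16.6 TPM in in9. Thra, the thyroid hormone receptor alpha gene, was called higher (16.4 ± 0.762 to 24.0 ± 1.79 TPM, SD, n = 3, adjusted p = 0.0453 in limma) and the other 3 were not. The genes most like Cxcl1 were Mrpl36, Sart3, Htra2 and Metap1d, with root mean square differences of 0.02, 0.02, 0.04 and 0.04. Each of these had overlapping groups, as Cxcl1 did.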

How the data were processed

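Messenger RNA sequencing of 4T1 cells was analysed in 6 libraries, 3 LV2 and 3 in9. The authors deposited 1 table of TPM with a mean column per group. The build was mm10, per the submitters' processing notes. Aligner, quantifier and annotation: not given in the sources used here. Depth per library is unknown, so no counting error is given. The libraries' values were checked and no pair was identical. Values entered limma 3.58.1 (R 4.3.3) as log2(TPM + 1) for genes whose mean TPM was 1 or more, with an intensity trend, no block, two-sided p-values and Benjamini-Hochberg adjustment over 13406 genes, called under 0.05. The steps were tested on simulated data. The settings varied were the pseudocount (0.1), the filter (none, or a mean TPM of 5), scaling (trimmed-mean, quantile), the trend, library weights, a replicate block and each library in turn. Tables used python 3.11.15 with pandas 2.3.3.

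Named genes were the 10 members, the called genes of each list or else up to 3 with the smallest p, and the 4 profiles nearest to the member with the smallest p and to the most abundant one, among genes without clone-type symbols. Other list genes (Cxcl9, Cxcl11, Il1a, Tnf, Rela, Nfkb1, Zc3h12a, Adam10, Adam17, Csf1 and those called without in9 replicate 1) were named after their values were seen. The members and lists were chosen with earlier results of these data known. Stretches shared between transcripts were exact 50-base matches in GENCODE M21. One receptor gene is not reported here.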

Additional observations from a re-analysis of the deposited data

How the results depend on the processing

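The log2 difference of Cxcl5 stayed positive in every setting tried and was 0.50 to 0.65 with 1 library left out. The number of members called higher was 0 with no filter (Cxcl5 adjusted p = 0.106), after trimmed-mean scaling (0.0841), without the trend (0.0853) and with a replicate block (0.140), and 0 to 1 with 1 library left out. Library weights called 1 member lower, Cxcl16 (0.0381). Cxcl1, never called, was at 0.11 after quantile normalization and -0.0668 to 0.0398 with 1 library left out. Over all genes, those higher and lower were 24 and 6 with no filter, 150 and 45 at a mean TPM of 5, 48 and 24 after trimmed-mean scaling, 27 and 4 without the trend, 1166 and 523 with weights, 1 and 1 with the replicate block, and 6 to 971 and 1 to 509 with 1 library left out, the most without in9 replicate 1. Genes upstream of transcription called higher were 0 with no filter, without the trend and with the block, 1 after trimmed-mean scaling, 4 with weights and 0 to 4 with 1 library left out. Of the processing genes 5 were higher with weights, 0 were higher and 0 lower with the block, and 1 to 7 higher and 0 to 1 lower with 1 library left out. Of the other attractants 2 were higher with no filter, 1 with the block and 2 to 5 with 1 library left out. Other chemokines gave 2 with weights and 0 to 2 with 1 library left out, receptors 0 to 1, and restraint genes 3 with weights and 0 to 2. The log2 ratio of Cxcl5 to Cxcl1 differed by 0.56 to 0.63 with 1 library left out. With the replicate block its exact permutation p was 0.25, the smallest that design can give, and the difference of 0.59 cannot change by construction. Deviations of same-numbered libraries correlated across genes at -0.0969, 0.0223 and -0.0461. These values gave no sign of pairing by number. They cannot exclude it, because differently numbered libraries were not compared. Values near 1 TPM are limited by a depth that is unknown.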
